A study of Mus musculus with 13 samples.

Results

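The 28 genes described here carry out cholesterol synthesis and sterol regulation, and they were chosen by name; the rule uses no measured value, but earlier results of these data were known when it was drawn up. They are 28 of the 57010 genes listed for each library, and all 28 were among the 15034 genes with enough reads to be tested. RNA-Seq was performed on primary wild-type mouse embryonic fibroblasts (MEFs) from mice 4, 5 and 6 in 4 groups. Control MEFs are labelled untreated, and per the study they were given vehicle in place of etoposide. Senescent MEFs had received etoposide, a topoisomerase inhibitor that breaks DNA, at 2 μM, were then kept in normal medium, and were otherwise untreated. The remaining groups were senescent MEFs given Fucoidan-FV, a fucoidan (a sulfated sugar polymer) from the seaweed Fucus vesiculosus, at 100 or 300 μg/mL for 12 hours before RNA was taken. Each group held mice numbered 4, 5 and 6, which were taken as the same 3 animals in every group. Control libraries 5(1) and 5(2), both labelled mouse 5, were taken as 1 animal, summed and counted as 1 sample. Primary MEFs are a mixed embryonic culture, no Fucoidan-FV was given to control MEFs, and an effect of the compound outside senescence could therefore not be measured.

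Cells build cholesterol from acetyl-CoA through the mevalonate pathway, then from squalene to lanosterol and on to cholesterol. The transcription factor SREBP2, encoded by Srebf2, turns these enzymes on when sterols in the endoplasmic reticulum membrane fall; SCAP escorts it to the Golgi, and the INSIG proteins hold it back. Liver X receptors (LXR) answer to oxysterols and turn on genes that move cholesterol out of the cell. Fibroblasts rely on both arms to keep membrane cholesterol steady.

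Libraries held 22782505 to 31278741 counts, and levels are given as CPM, counts scaled to a common library size. The senescence genes Cdkn1a and Cdkn2a were higher and Mki67 and Lmnb1 lower in senescent than in control MEFs (4 of 4 called). Fibroblast markers summed to between 31933 and 53826 CPM in every sample, macrophage markers to between 2.88 and 17.5 CPM and endothelial markers to at most 11.3 CPM. Endothelial markers summed to more with Fucoidan-FV, at 6.10 to 11.3 CPM with 100 μg/mL and 3.86 to 8.32 CPM with 300 μg/mL against 1.47 to 2.38 CPM in senescent MEFs (of the 5 markers 4 were tested, and Tek was called higher at 100 μg/mL). Most of the rise was Tek, at 4.77 to 7.96 and 3.69 to 5.87 CPM against 0.172 to 0.863 CPM. Pecam1 and Vwf also reached higher values than in senescent samples, at most 1.70 CPM, and Cdh5 and Kdr did not. The part of endothelial markers in the results was not tested. Macrophage markers ran from 3.48 to 4.76 CPM in control and 2.88 to 17.5 CPM in senescent samples. Skeletal muscle markers summed to more than these and to less with Fucoidan-FV, at 104 to 196 CPM in control, 149 to 359 CPM in senescent, 91.7 to 148 CPM with 100 μg/mL and 67.8 to 119 CPM with 300 μg/mL, and their part was not tested either. Of these 5 markers, Acta1 and Des made up nearly the whole sum, while the muscle regulators Myod1 and Myog reached at most 0.042 CPM. Only 2 of the 5 were tested. By edgeR 0 of these 2 were called against senescent MEFs at either dose, with 1 lower at 100 μg/mL and 2 lower at 300 μg/mL at an unadjusted p under 0.05, and DESeq2 called 0 and 1. Against control MEFs, Acta1 was called lower at both doses (-1.44 and -1.77, edgeR adjusted p = 0.022 and 0.0082). Adipocyte markers summed to 13.7 to 33.1 CPM and epithelial markers to at most 2.04 CPM. Libraries also differed in genes whose exonic sequence lies over 95% in a single annotated transcript: across 826 such genes, library 5(2) exceeded library 5(1) by a median of 2.31 on the log2 scale, although both are labelled mouse 5. A library index, the median deviation of these genes from their mean over samples, ran from -1.47 to 0.565 in control, -0.984 to 0.505 in senescent, -0.266 to 1.02 in 100 μg/mL and -1.22 to 0.471 in 300 μg/mL samples.

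Among the 28 genes, this library difference was large for a few. Between libraries 5(1) and 5(2) of control mouse 5, the log2 level rose by 2.66 for Nsdhl, 2.45 for Abca1, 1.33 for Insig1, 1.32 for Cyp51, 1.29 for Scap, 1.07 for Stard4 and 0.85 for Hsd17b7. Abcg1 was listed at 0 in 5(1). The other 20 genes lay between -0.54 and 0.59. Srebf2, Sqle, Lss, Msmo1 and Sc5d, on which much of what follows rests, differed by -0.06, -0.19, -0.18, -0.21 and -0.08, while Hmgcs1, Idi1 and Dhcr7, also given by sample, differed by -0.44, -0.50 and -0.54. Of the genes that differed most, Stard4 alone had little single-transcript sequence (8.44% of its exonic bases).

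**Figure D1:**
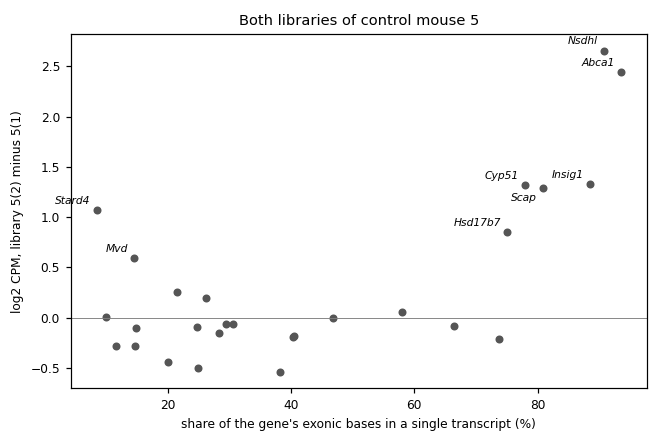
Difference between the pair of libraries of control mouse 5 for 27 genes (y axis, log2 CPM of library 5(2) minus library 5(1); Abcg1, listed at 0 in 5(1), is left out) against the percent of each gene's exonic bases found in a single annotated transcript (x axis). Points are genes, and those beyond 0.55 are named; 6 of the 7 highest lie beyond 75% on the x axis, and Stard4 lies at 8.44%.

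SREBP proteins bind the sterol regulatory element, and NF-Y binds the CCAAT box beside it, so both motifs were searched in the 250 bases before each gene's canonical transcript start, on both strands (mouse build GRCm39, GENCODE annotation). The full element TCACNCCAC was present in 1 of the 28 windows, that of Hmgcs1, against 1.12% of 21770 windows of protein-coding genes. Without its last letter (TCACNCCA) it was in 2 windows, Hmgcs1 and Srebf2, against 3.43% of all, and without its first letter (CACNCCAC) in 5 windows, Acat2, Hmgcs1, Insig1, Sqle and Stard4, against 5.58%. These spellings overlap each other and were chosen after the full element had been counted. CCAAT was in 18 of the 28 windows and in 13 of the 18 synthesis enzymes, against 36.5% of all windows. These counts describe letters in a short window and say nothing of binding.

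Of the 5 genes that fell in senescent MEFs and hold either short spelling, the windows of 4 are shown (that of Stard4 is not shown here), 5′ to 3′ on the gene's own strand, with those matches and CCAAT (or ATTGG, its reverse complement) in capitals, each ending before the first base of the gene. They are Hmgcs1 at chr13:120151732-120151914, plus strand, Sqle at chr15:59186632-59186868, plus strand, Srebf2 at chr15:82031132-82031381, plus strand, and Acat2 at chr17:13179642-13179891, minus strand.
Hmgcs1: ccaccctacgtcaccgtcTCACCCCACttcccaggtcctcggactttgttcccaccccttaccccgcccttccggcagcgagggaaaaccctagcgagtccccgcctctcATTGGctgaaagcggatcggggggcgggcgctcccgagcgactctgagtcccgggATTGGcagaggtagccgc
Sqle: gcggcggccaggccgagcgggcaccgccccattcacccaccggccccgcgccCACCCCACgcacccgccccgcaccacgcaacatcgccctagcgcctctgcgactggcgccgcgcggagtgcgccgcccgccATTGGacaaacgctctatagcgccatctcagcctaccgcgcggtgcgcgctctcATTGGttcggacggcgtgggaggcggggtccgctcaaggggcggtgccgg
Srebf2: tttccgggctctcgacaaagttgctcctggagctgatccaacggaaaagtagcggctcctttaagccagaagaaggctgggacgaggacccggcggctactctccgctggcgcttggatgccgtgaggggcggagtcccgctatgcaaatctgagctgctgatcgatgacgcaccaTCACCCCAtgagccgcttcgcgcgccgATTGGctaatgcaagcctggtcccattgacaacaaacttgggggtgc
Acat2: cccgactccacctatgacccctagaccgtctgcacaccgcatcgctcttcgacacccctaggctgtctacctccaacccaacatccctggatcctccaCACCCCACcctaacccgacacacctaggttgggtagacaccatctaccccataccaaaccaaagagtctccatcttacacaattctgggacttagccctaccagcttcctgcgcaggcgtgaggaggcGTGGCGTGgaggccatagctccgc
Hmgcs1, Sqle and Srebf2 hold CCAAT in the reverse orientation downstream of the sterol element match, and Acat2 holds none. The second Acat2 match, GTGGCGTG, lies on the opposite strand, 24 bases before the start.

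The first comparison was between senescent and control MEFs. Transcripts of cholesterol synthesis were lower in senescent MEFs: 11 of the 18 enzymes fell by edgeR, along with Srebf2, their master regulator, and Stard4, a cholesterol carrier. By edgeR and by DESeq2 0 of the 18 rose, and 1 (Tm7sf2) was higher at an unadjusted p under 0.05. Since these are bulk samples, fewer cells of a type and less RNA per cell cannot be told apart. Of all 28 genes, 13 were called lower at an adjusted p under 0.05, against 5.63% of genes tested, and 1 was called higher (Abca1), against 6.11%; in either direction the 14 called compare with 11.7%. The median log2 fold change of the 18 enzymes was -0.94, against 0.07 over all genes tested. Control and senescent values did not overlap, with senescent lower, for 15 of the 28 genes (12.9% of genes tested), and with senescent higher for 4 (14.2%). With the threshold of an absolute log2 fold change over 1 added, 10 of the 28 were called, against 8.42%. DESeq2 called 14 lower (7.99% of genes it gave an adjusted p) and 2 higher (9.75%), and at an unadjusted p under 0.05 there were 14 lower (11.2%) and 3 higher (14.2%).

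In the mevalonate pathway, 4 of 7 genes fell. Hmgcs1, which makes the HMG-CoA from which mevalonate comes (chr13:120151915-120170470), was at 231, 234 and 317 CPM in control mice 4, 5 and 6 and at 96.0, 113 and 77.6 CPM in senescent MEFs. Every senescent value lay below every control value, a log2 fold change of -1.45 ± 0.21 (SE, n = 3 mice a group; edgeR adjusted p = 0.00059). Idi1, the isomerase that makes dimethylallyl diphosphate (chr13:8935537-8942487), was at 101, 108 and 139.8 CPM in control and 38.0, 45.7 and 32.7 CPM in senescent MEFs, -1.58 ± 0.24 (SE, edgeR adjusted p = 0.0011). Acat2, the cytosolic thiolase that opens the pathway (chr17:13161367-13179641), read 65.0, 83.3 and 90.5 CPM in control and 23.4, 24.7 and 37.8 CPM in senescent MEFs, -1.47 ± 0.27 (SE, edgeR adjusted p = 0.0036). Again neither gene's groups overlapped. Acat2 shares 18.1% of its 50-base sequences with other genes, mostly Acat3, which reached at most 11.1 CPM, and Idi1 shares 17.0%, mostly with Idi1-ps1, so their counts are less certain. Fdps, farnesyl diphosphate synthase, fell by 1.00 ± 0.28 on the log2 scale (SE, edgeR adjusted p = 0.034). The Fdps call was lost with mouse as a block (adjusted p = 0.054) and in the fit of the pair of groups alone (0.11). It was also lost without control mouse 4 or 5 or senescent mouse 4 or 5 (0.060 to 0.12). The kinases Mvk and Pmvk and the decarboxylase Mvd were not called (log2 fold changes -0.49, -0.92 and -0.40), and in each of them senescent mouse 6 was the highest senescent sample, at 52.1, 14.1 and 27.8 CPM.

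All 3 enzymes from squalene to lanosterol fell. Lss, which closes squalene epoxide into lanosterol (chr10:76367298-76392976), was at 57.3, 69.6 and 53.2 CPM in control mice 4, 5 and 6 and at 19.6, 21.8 and 19.2 CPM in senescent MEFs. Its senescent samples lay close together, and the log2 fold change was -1.57 ± 0.22 (SE, edgeR adjusted p = 0.00056). Sqle, the squalene epoxidase (chr15:59186869-59203043), read 123, 133 and 151 CPM in control against 78.2, 68.6 and 70.0 CPM in senescent MEFs, -0.91 ± 0.20 (SE, edgeR adjusted p = 0.011). Fdft1, squalene synthase (chr14:63382189-63417027), read 87.0, 100.0 and 94.4 CPM in control against 47.4, 44.4 and 69.2 CPM, -0.81 ± 0.22 (SE, edgeR adjusted p = 0.031). Groups were apart for both. The Fdft1 call was lost without control mouse 5, senescent mouse 4 or senescent mouse 5 (adjusted p of 0.061, 0.068 and 0.062). It was also lost in the fit of the pair of groups alone (0.086). For Fdft1, 26.2% of the exonic bases overlap a gene on the other strand.

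Of the 8 enzymes from lanosterol to cholesterol, 4 fell. Dhcr7, which makes cholesterol from 7-dehydrocholesterol (chr7:143376740-143402149), showed the largest drop of any enzyme among the 18, with 25.4, 34.1 and 40.0 CPM in control mice 4, 5 and 6 and 9.17, 9.01 and 10.5 CPM in senescent MEFs. The senescent samples lay close together and well under the lowest control (log2 fold change -1.79 ± 0.28, SE, edgeR adjusted p = 0.0013). Msmo1, the C4-methylsterol oxidase (chr8:65170603-65186830), went from 118, 115 and 156 CPM to 46.7, 53.7 and 65.9 CPM, -1.22 ± 0.20 (SE, edgeR adjusted p = 0.0018). Cyp51, the lanosterol demethylase (chr5:4123416-4154751), went from 66.1, 66.3 and 38.5 CPM to 20.6, 10.6 and 25.8 CPM, -1.59 ± 0.33 (SE, edgeR adjusted p = 0.0070). For these genes too the groups were apart, although control mouse 6 was low for Cyp51 and is the sample with the lowest library index. Sc5d, lathosterol oxidase (chr9:42162891-42175605), read 53.0, 54.5 and 79.6 CPM in control and 37.0, 35.1 and 24.1 CPM in senescent MEFs, -0.96 ± 0.23 (SE, edgeR adjusted p = 0.016). The call was lost without control mouse 6 (adjusted p = 0.055) and in the fit of the pair of groups alone (0.11). Nsdhl and Hsd17b7, which work with Msmo1 to strip the C4 methyl groups, were not called (-0.80 and -0.53). Ebp was not called, at a mean of 22.6 ± 7.51 CPM in control and 22.2 ± 5.38 CPM in senescent MEFs (SD, n = 3). Tm7sf2, a sterol C14 reductase, was the 1 enzyme with a higher estimate (1.13 ± 0.49, SE, adjusted p = 0.17), at 0.940 to 4.50 CPM in control and 4.67 to 8.02 CPM in senescent MEFs.

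The regulators divided. Srebf2 (chr15:82031382-82093201) had the smallest adjusted p of all 28 genes, with 242, 255 and 286 CPM in control mice 4, 5 and 6 and 101, 92.9 and 97.7 CPM in senescent MEFs. The groups were far apart and the spread within each was small (log2 fold change -1.43 ± 0.15, SE, edgeR adjusted p = 9.18e-05). Srebf1, whose SREBP1 product chiefly drives fatty acid genes, was not called (-0.25 ± 0.16, SE), at 124 to 133 CPM in control and 104 to 115 CPM in senescent MEFs. Insig1, itself a target of SREBP, had the larger estimate (-1.91 ± 0.59, SE) but missed the threshold at an adjusted p of 0.051. Control mouse 6 stood at 12.7 CPM against 45.0 and 30.4 CPM in the other controls, and 3.10 to 12.1 CPM were measured in senescent MEFs. With the library index as a covariate, an alternative chosen after seeing the data, the adjusted p was 0.00012, and it was under the threshold without control mouse 6 or senescent mouse 6 (0.039 and 0.0498). Insig1 passed under 8 of 16 alternatives and missed under 8, with an adjusted p of up to 0.22. Insig2 was not called (0.47), and Scap was at a mean of 24.2 ± 12.1 CPM in control and 26.5 ± 7.63 CPM in senescent MEFs (SD, n = 3).

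Stard4, which carries cholesterol between membranes and is another SREBP target (chr18:33332197-33346942), fell furthest of all 28 genes. It was at 20.2, 12.4 and 9.40 CPM in control mice 4, 5 and 6 and at 1.85, 0.905 and 1.97 CPM in senescent MEFs. The lowest control was above the highest senescent sample, and the log2 fold change was -3.14 ± 0.47 (SE, edgeR adjusted p = 0.00091).

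On the LXR side 0 of 4 genes fell, by edgeR, by DESeq2 or at an unadjusted p under 0.05. Over all genes 5.63%, 7.99% and 11.2% fell by these measures, so 0 among 4 genes does not set them apart. Abca1, the pump that loads cholesterol on to apolipoproteins (chr4:53030787-53159900), was the single gene called higher and is given in full for that reason, after its values were seen: 3.65, 4.77 and 2.58 CPM in control mice 4, 5 and 6, and 17.5, 9.31 and 6.46 CPM in senescent MEFs. Groups did not overlap (log2 fold change 1.59 ± 0.45, SE, edgeR adjusted p = 0.035). The call was lost with library 5(2) alone for control mouse 5 (1.18, adjusted p = 0.18) and without any control mouse or without senescent mouse 4 or 5 (adjusted p of 0.063 to 0.20). It was also lost in the fit of the pair of groups alone (1.61, adjusted p = 0.11). Nr1h2, which encodes LXR beta, was at 65.5 to 74.4 CPM in control and 91.7 to 131 CPM in senescent MEFs (0.59 ± 0.19, SE, adjusted p = 0.056, or 0.027 to 0.038 with any 1 senescent mouse left out). It passed under 6 of 16 alternatives and missed under 10, with estimates down to 0.29 and an adjusted p of up to 0.18. Abcg1, a second efflux pump, stayed under 3 CPM throughout (1.62 ± 0.80, SE, adjusted p = 0.23). Mylip, the ubiquitin ligase that degrades lipoprotein receptors, was not called, at 9.03 ± 3.34 CPM in control and 9.10 ± 4.09 CPM in senescent MEFs (SD, n = 3).

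**Figure D2:**
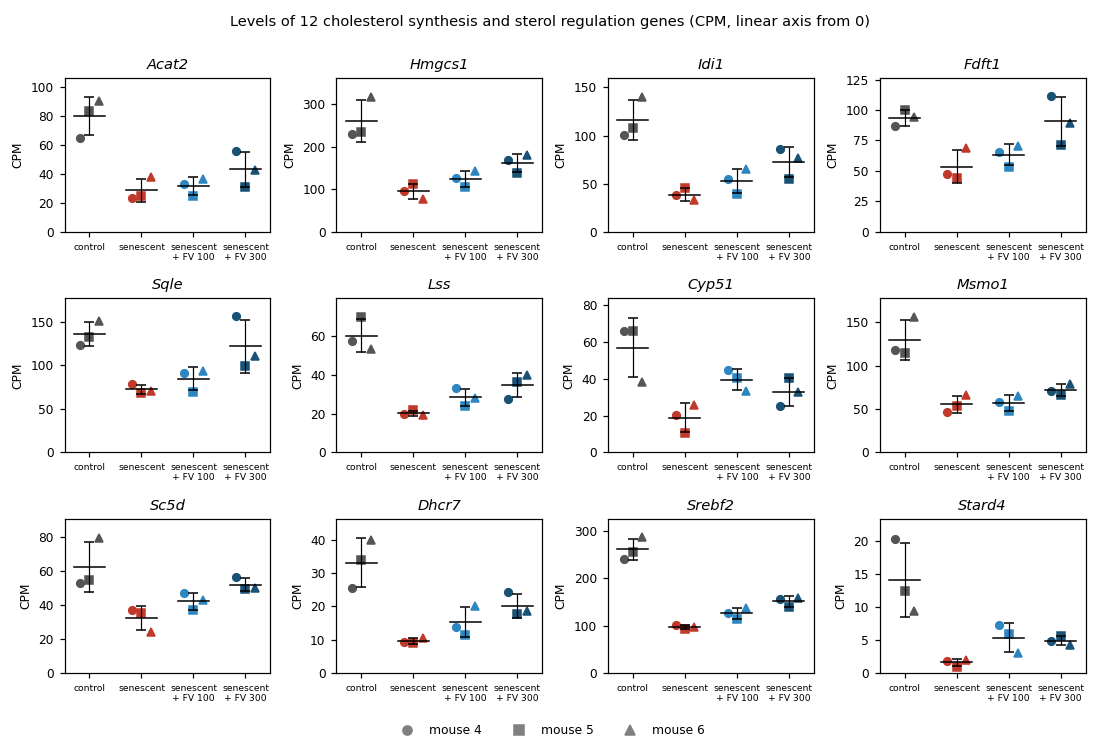
CPM (linear y axes from 0) of the 12 genes with the smallest adjusted p, by group (x axis). Symbols are mice, horizontal bars are means and error bars are SD (n = 3); all 12 lie lower in senescent than in control MEFs without overlap, and Srebf2 runs from a mean of 261 CPM in control to 97.0 in senescent MEFs, 125 with 100 μg/mL and 151 with 300 μg/mL Fucoidan-FV.

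The next comparisons asked what Fucoidan-FV changed in senescent MEFs. Both share the senescent samples, so their values are given side by side and are not independent of each other or of the drop just described. With 100 μg/mL, Stard4 rose and no other of the 28 genes was called, that is 1 gene higher against 1.14% of genes tested and 0 lower against 2.89% (4.02% in either direction). With 300 μg/mL, 0 of the 28 were called by edgeR's quasi-likelihood test, against 0.778% of genes tested called higher and 1.12% lower (1.9% in either direction). At an unadjusted p under 0.05 there were 9 higher and 1 lower with 100 μg/mL (7.13% and 12.7% of genes tested), and 13 higher and 0 lower with 300 μg/mL (6.31% and 8.97%). DESeq2 called 6 higher at 100 μg/mL (4.11% of genes it gave an adjusted p) and 10 higher at 300 μg/mL (2.8%), and 0 lower at either dose (5.12% and 3.43%).

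Stard4 was at 7.20, 5.87 and 2.98 CPM in mice 4, 5 and 6 with 100 μg/mL, all above the highest senescent value of 1.97 CPM. The difference was 1.75 ± 0.45 on the log2 scale (SE, n = 3, edgeR adjusted p = 0.048). This call was lost under 11 of 16 alternatives, among them mouse as a block (adjusted p = 0.070), the fit of the pair of groups alone (0.14) and leaving out senescent mouse 4, 5 or 6 or treated mouse 4 or 5 (0.070 to 0.20). With 300 μg/mL it was at 4.89, 5.55 and 4.15 CPM, 1.62 ± 0.45 (SE, adjusted p = 0.092).

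Of the 18 enzymes, 3 had a higher estimate at the lower dose. These were Hsd17b7, Cyp51 and Nsdhl, at 1.12, 1.06 and 1.00 with 100 μg/mL and 1.00, 0.79 and 0.64 with 300 μg/mL. As a set, the 18 enzymes had smaller estimates at the lower dose than at the upper dose. Their median log2 fold change was 0.23 with 100 μg/mL (12 of 18 estimates above 0) and 0.67 with 300 μg/mL (18 of 18), against -0.02 and 0.00 over all genes tested. On the deposited TPM, which carry no TMM factor, the same medians were 0.60 and 0.93 (18 of 18 above 0 at both doses), but TPM also moved the median of all genes by 0.34 and 0.29. Relative to that shift the enzymes stood at 0.26 (16 of 18 above it) and 0.64 (18 of 18). With 300 μg/mL, 8 of the 18 enzymes and 11 of the 28 genes lay above the senescent samples without overlap and 0 lay below, against 9.41% and 10.2% of genes tested. With 100 μg/mL, 8 of the 28 lay above and 2 below, against 11.2% and 15%. Srebf2 came nearest to the threshold at 300 μg/mL: 157, 138 and 157 CPM in mice 4, 5 and 6, all above the highest senescent sample at 101 CPM (log2 fold change 0.64 ± 0.15, SE, edgeR adjusted p = 0.05003, over the threshold). It was under the threshold by DESeq2 (adjusted p = 0.0013), with RLE factors (0.042) and without senescent mouse 4 or 6 (0.038 and 0.022). With 100 μg/mL it was at 127, 113 and 137 CPM (0.37 ± 0.15, SE, adjusted p = 0.19).

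In the mevalonate pathway, Hmgcs1 was at 128, 106 and 143 CPM in mice 4, 5 and 6 with 100 μg/mL and at 169, 138 and 180.2 CPM with 300 μg/mL. Its upper-dose samples all exceeded the senescent ones (0.76 ± 0.20, SE, adjusted p = 0.077, or 0.049 without senescent mouse 5), whereas mouse 5 at the lower dose lay within them (0.39, adjusted p = 0.31). Idi1 showed the same order, at 54.5, 39.8 and 65.0 CPM and then 85.9, 55.0 and 76.4 CPM (0.90 ± 0.24 at 300 μg/mL, SE, adjusted p = 0.079). Acat2 read 33.0, 24.6 and 36.7 CPM with 100 μg/mL and 55.7, 31.2 and 42.5 CPM with 300 μg/mL (0.13 and 0.59, adjusted p = 0.84 and 0.32), and overlapped the senescent samples at both doses. For the steps around squalene, Sqle was at 91.3, 69.1 and 93.5 CPM and then 156, 98.7 and 110.2 CPM, Fdft1 at 66.0, 53.6 and 70.2 CPM and then 111, 71.7 and 89.1 CPM, and Lss at 33.1, 24.2 and 27.9 CPM and then 27.6, 36.5 and 39.7 CPM. At 300 μg/mL every sample of these 3 genes lay above every senescent sample (log2 fold changes 0.75, 0.76 and 0.78, adjusted p = 0.081, 0.11 and 0.090). Without senescent mouse 6, the highest senescent sample for Fdft1, that gene passed the threshold (adjusted p = 0.016).

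Downstream of lanosterol, Dhcr7 was at 13.9, 11.5 and 20.2 CPM in mice 4, 5 and 6 with 100 μg/mL and at 24.2, 17.6 and 18.7 CPM with 300 μg/mL, above all senescent samples at both doses (0.67 and 1.08, adjusted p = 0.20 and 0.070). Sc5d was at 47.0, 37.0 and 42.6 CPM and then 56.4, 49.5 and 49.7 CPM, with the lower-dose sample of mouse 5 just under the highest senescent sample (0.40 and 0.69, adjusted p = 0.36 and 0.15). Msmo1 with 100 μg/mL was at 57.9, 47.2 and 65.4 CPM, and then at 71.2, 65.7 and 79.1 CPM with 300 μg/mL (0.04 and 0.38, adjusted p = 0.95 and 0.41). Cyp51 had its higher estimate at the lower dose, with 44.6, 40.3 and 33.5 CPM and then 25.2, 40.3 and 33.0 CPM (1.06 and 0.79, adjusted p = 0.086 and 0.26). Hsd17b7 was likewise at 36.0 to 48.5 CPM and 34.1 to 48.7 CPM against 11.9 to 28.6 CPM in senescent MEFs (1.12 and 1.00, adjusted p = 0.061 and 0.13); its 100 μg/mL difference passed the threshold with mouse as a block (adjusted p = 0.042) and without senescent mouse 4 (0.033). Cyp51 and Hsd17b7 are among the genes that differed between libraries 5(1) and 5(2), and the library index was highest in the 100 μg/mL samples of mice 4 and 5; with that index as a covariate, an alternative chosen after seeing the data, Cyp51 passed the threshold at both doses (0.83 and 0.89, adjusted p = 0.021 and 0.018) and Hsd17b7 at neither (0.95 and 1.00, adjusted p = 0.069 and 0.059).

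**Figure D3:**
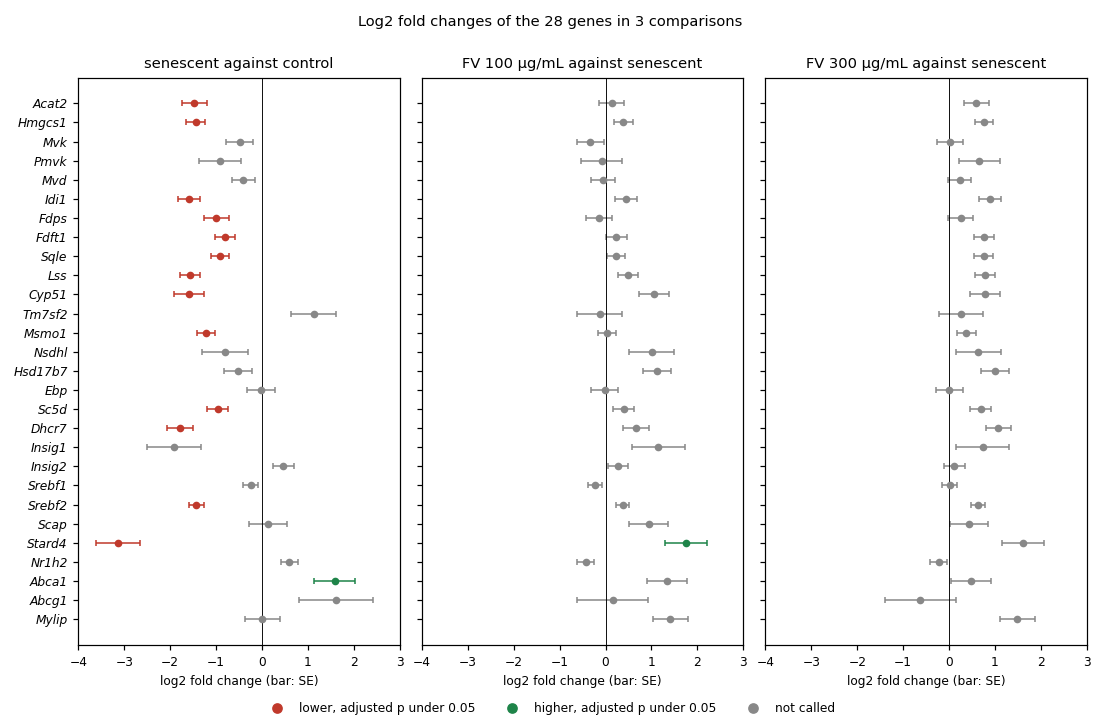
Log2 fold changes (x axes, with SE bars) of the 28 genes (y axis, by role from the first mevalonate enzyme down to the LXR genes) in 3 comparisons. Red and green points passed an adjusted p of 0.05 and grey points did not; senescent against control holds 13 red and 1 green point, 100 μg/mL Fucoidan-FV against senescent 1 green point, and 300 μg/mL against senescent none.

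The regulators and LXR genes did not share 1 pattern under Fucoidan-FV. Mylip was at 22.9, 18.8 and 30.9 CPM in mice 4, 5 and 6 with 100 μg/mL and at 28.1, 26.0 and 22.4 CPM with 300 μg/mL, against 4.38 to 11.6 CPM in senescent MEFs, and is given in full after its values were seen. No treated sample overlapped a senescent one (1.41 ± 0.38 and 1.49 ± 0.38, SE, adjusted p = 0.056 and 0.070), and libraries 5(1) and 5(2) differed by -0.28 for Mylip. At each dose it passed the threshold under 5 of 16 alternatives, among them DESeq2 (adjusted p = 0.0033 and 0.0038) and an offset for annotation properties (0.020 and 0.024). Under the other 11 it did not, with an adjusted p of up to 0.16 and 0.19. Abca1 was at 30.7, 33.3 and 20.03 CPM and then 7.60, 21.3 and 17.2 CPM; its 100 μg/mL samples were above all senescent samples, while its 300 μg/mL samples overlapped them (1.34 ± 0.44 and 0.47 ± 0.43, SE, adjusted p = 0.11 and 0.69). With an offset for annotation properties the estimate at 100 μg/mL was 0.63 (adjusted p = 0.15). Nr1h2 was at 72.7 to 87.8 CPM with 100 μg/mL and 80.6 to 100.5 CPM with 300 μg/mL (-0.43 ± 0.18, SE, adjusted p = 0.21 at the lower dose). Its direction turned on the TPM scale, with a difference of 0.05 at the lower dose, or -0.30 relative to the shift of all genes. Abcg1 was at 0.194 to 2.73 CPM over both doses.

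Among the sterol sensors, Scap was at 32.1 to 61.4 CPM with 100 μg/mL against 17.8 to 32.2 CPM in senescent MEFs (0.94 ± 0.42, SE, adjusted p = 0.23), and Insig1 was at 7.92 to 24.4 CPM against 3.10 to 12.1 CPM. In both genes, as in Abca1 and Nsdhl, mouse 6 was the lowest of the 100 μg/mL samples and mouse 4 the lowest of the 300 μg/mL samples, and these samples had the lowest library index of their groups. Srebf1 lay between 85.8 and 103 CPM with 100 μg/mL, below all senescent samples (-0.23 ± 0.16, SE, adjusted p = 0.46). Insig2 lay between 34.6 and 45.3 CPM over both doses.

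**Figure D4:**
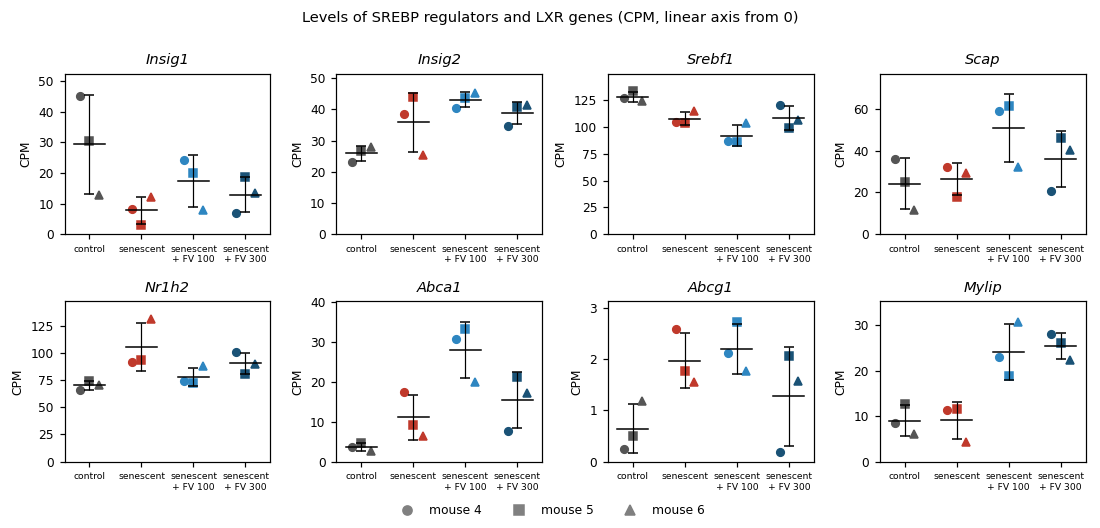
CPM (linear y axes from 0) of 8 regulators of sterol sensing and LXR genes by group (x axis); symbols are mice, horizontal bars means and error bars SD (n = 3). Mylip lies at 18.8 to 30.9 CPM in all treated samples and at 4.38 to 12.6 CPM in all control and senescent samples; Insig1, Scap and Abca1 spread widely within groups.

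Doses were then compared with each other. No gene among the 28 was called between 300 and 100 μg/mL by edgeR or by DESeq2 (every edgeR adjusted p at least 0.97; 0.00665% of genes tested were called by edgeR and 0.00666% by DESeq2), and at an unadjusted p under 0.05 there were 2, Sqle (0.52 ± 0.20, SE) and Fdft1 (0.52 ± 0.22, SE), both higher at 300 μg/mL, against 0.399%. The 300 μg/mL samples lay above the 100 μg/mL samples without overlap in 9 of the 28 genes, against 5.1% of genes tested, and below in 0, against 2.45%. These 9 were Mvk, Pmvk, Mvd, Fdps, Fdft1, Sqle, Msmo1, Sc5d and Srebf2. The median over the enzymes was 0.36, against 0.08 over all genes tested. Estimates of the 7 mevalonate genes lay between 0.28 and 0.73, and that of Abca1 was -0.87 ± 0.44 (SE), all at an edgeR adjusted p of at least 0.97.

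Treated cells were also compared with control MEFs, which asks how far from non-senescent levels the genes lay. Of the 28 genes, 14 were called with 100 μg/mL (26.6% of genes tested), 11 lower (14.4% of genes tested) and 3 higher (12.2%), and 8 with 300 μg/mL (24.4%), 6 lower (12%) and 2 higher (12.4%). The 6 lower with 300 μg/mL were Acat2 (-0.88), Hmgcs1 (-0.68), Lss (-0.79), Msmo1 (-0.85), Srebf2 (-0.79 ± 0.15, SE, adjusted p = 0.0021) and Stard4 (-1.53 ± 0.44, SE, adjusted p = 0.023). With 100 μg/mL the same contrast gave -1.34, -1.06, -1.08, -1.19, -1.06 and -1.39 for these genes, all called lower. Abca1 (2.92 and 2.06) and Mylip (1.42 and 1.49) were called higher at both doses, and Insig2 (0.73) at 100 μg/mL. Srebf1 was called lower with 100 μg/mL (-0.48 ± 0.16, SE, adjusted p = 0.037), a call lost with mouse as a block (adjusted p = 0.054). With 1 mouse left out at a time, the 300 μg/mL calls of Msmo1, Srebf2, Abca1 and Mylip held, while that of Acat2 was lost without mouse 5 or 6 of either group (adjusted p of 0.068 to 0.12), that of Hmgcs1 without control mouse 6 or treated mouse 4 or 5 (0.055 to 0.11), that of Lss without control mouse 4 or 5 or treated mouse 4 (0.051 to 0.10), and that of Stard4 without control mouse 4 or 5 or any treated mouse (0.054 to 0.15). The 100 μg/mL calls of Stard4 (without any control mouse, or treated mouse 5 or 6), Insig2 (without any treated mouse), Srebf1 (without any control mouse, or treated mouse 4 or 5) and Mylip (without treated mouse 6) were lost likewise (0.053 to 0.25). So was that of Sqle, without any control mouse or treated mouse 4 or 5 (0.052 to 0.13). Those of Fdps and Dhcr7 were lost without control mouse 5 (0.075) and treated mouse 5 (0.052), respectively.

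The level of the enzymes as a whole was read in each sample as the median over the 18 of log2 CPM minus the control mean. It was -0.08, 0.12 and -0.09 in control mice 4, 5 and 6, and -1.14, -1.22 and -0.96 in senescent MEFs. It was -0.62, -1.01 and -0.73 with 100 μg/mL, where mouse 5 lay within the senescent range, and -0.32, -0.46 and -0.47 with 300 μg/mL, above every senescent and 100 μg/mL sample and below every control. Over the 12 enzymes with under 50% of their exonic bases in a single transcript, the values were -0.12, 0.09 and 0.00 in control, -1.20, -1.13 and -0.69 in senescent, -0.76, -1.06 and -0.72 with 100 μg/mL and -0.21, -0.55 and -0.47 with 300 μg/mL. On this measure senescent mouse 6 lay above every 100 μg/mL sample, and every 300 μg/mL sample still lay above every senescent one. By TPM, all 18 enzymes gave -0.04, 0.07 and -0.02 in control mice 4, 5 and 6, -0.88, -0.87 and -1.09 in senescent MEFs, -0.15, -0.38 and -0.34 with 100 μg/mL and -0.02, -0.02 and -0.12 with 300 μg/mL, so that the upper dose overlapped control, and 9 of 18 enzymes had a higher mean than in control. Against control, TPM moved the median of all genes by 0.47 at the lower and 0.39 at the upper dose. Relative to that shift, 4 of 18 enzymes at the lower dose and 3 of 18 at the upper dose stood higher than in control. With each sample's own median over 12791 genes taken off, the enzymes were at -1.13, -0.99 and -0.91 in senescent MEFs, -0.61, -0.85 and -0.64 with 100 μg/mL and -0.26, -0.50 and -0.46 with 300 μg/mL, against -0.06 to 0.06 in control, and no group overlapped another.

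**Figure D5:**
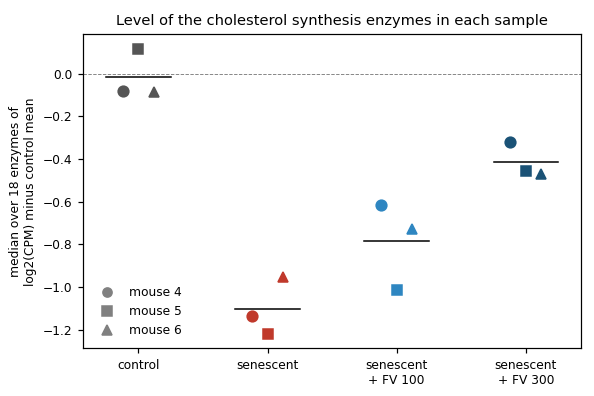
Median over 18 synthesis enzymes of log2 CPM minus the control mean (y axis) in each sample, by group (x axis). Symbols are mice and bars group means; senescent samples lie between -1.22 and -0.96, 100 μg/mL samples between -1.01 and -0.62 and 300 μg/mL samples between -0.47 and -0.32.

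Related pathways outside the 28 genes give the setting. In senescent against control MEFs, 7 of 14 fatty acid synthesis genes fell (5.63% of all genes tested fell and 6.11% rose), among them Fasn (-1.19) and Fads1 (-1.13), and 1 rose (Lpin1, 1.38), whereas 0 of 9 genes for SREBP processing and endoplasmic reticulum quality control were called by edgeR or DESeq2 (2 lower and 0 higher at an unadjusted p under 0.05) and 1 of 12 in the isoprenoid branch fell (Pdss1, -1.87). In sterol transport, uptake and storage, 1 of 16 rose (Npc2, 1.09) and 2 fell, Scarb1 (-1.02) and Soat1 (-0.69), the enzyme that esterifies cholesterol for storage. Among 11 further oxysterol and LXR genes, Pltp (2.98) and Smpdl3a (0.96) rose. With Fucoidan-FV, Smpdl3a was higher than in senescent MEFs at both doses (1.29 and 1.25, adjusted p = 0.014 and 0.024), Soat1 was lower at both (-0.99 and -0.90, adjusted p = 0.016 and 0.034), and Scarb1 (-1.05) and Mid1ip1 (-0.88) were lower at 100 μg/mL. Over the 14 fatty acid synthesis genes, the median was 0.43 with 100 and 0.34 with 300 μg/mL, against -0.02 and 0.00 over all genes. By edgeR 0 were called higher at either dose (1.14% and 0.778% of genes tested). At an unadjusted p under 0.05, 5 and 4 were higher (7.13% and 6.31%) and 1 lower at each dose (12.7% and 8.97%). DESeq2 called 2 and 3 higher (4.11% and 2.8%), and 1 and 0 lower (5.12% and 3.43%).

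Compared by TPM, RSEM's level per transcript length and library, Fdps was the most abundant of the 28 genes in control MEFs (233 ± 60.9 TPM, SD, n = 3), followed by Msmo1 (114 ± 24.1), Hmgcs1 (103 ± 17.3) and Srebf2 (99.5 ± 7.22), of which the last 3 overlap within 1 SD of each other. The LXR pumps were the least abundant, Abca1 at 1.43 ± 0.650 TPM and Abcg1 at 0.807 ± 0.982 TPM.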

How the data were processed

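Per the labels and the study's methods, total RNA was made into stranded libraries, checked with FastQC 0.12.1, aligned with STAR 2.7.11b to GRCm39 and quantified with RSEM 1.3.1; the strand setting is not given in the sources used here. The authors deposited expected counts and TPM per gene and library; both come from RSEM's estimates, which split reads shared between transcripts and genes. The effective lengths deposited beside them, another estimate, were not tested.

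Expected counts were rounded to whole numbers, control libraries 5(1) and 5(2) were summed, and genes were kept with filterByExpr (minimum count 10). Libraries 5(1) and 5(2) differed by more than sampling noise (chi-square per gene 159), so they are not 1 library deposited again. Library 5(1) was nearer to control mouse 6 (61.3) than to 5(2), and 5(2) nearer to control mouse 4 (58.2) than to 5(1). The remaining control pairs gave 86.2 to 170. That 5(1) and 5(2) came from 1 animal was taken from the labels and was not tested. All 4 groups entered 1 edgeR 4.0.16 quasi-likelihood fit with TMM factors in R 4.3.3, with Benjamini-Hochberg adjustment over the 15034 genes tested; a call is an adjusted p under 0.05. A total of 6 pairwise comparisons was made. CPM are TMM-scaled. With 3 mice against 3, a two-sided exact permutation test cannot go below 0.1, so none was run.

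Mouse numbers in the labels were taken as the same animals. Deviations of same-numbered samples correlated at a median r of -0.002 (-0.18 to 0.38) over 18 pairs. Annotation and windows came from GENCODE for GRCm39; 56310 genes matched by ID. Genes given by sample are the 12 with the smallest adjusted p over the first 3 comparisons, and related lists name at most 2 genes in each direction. The members and lists were chosen with earlier results of these data known. The fit was repeated using DESeq2 1.42.0, using RLE factors, without the filter, on the 2 compared groups, with mouse as a block, either library of control mouse 5, offsets for annotation properties (GC content, length, share in a single transcript) alone or together with the block, each mouse left out, a fold threshold, and, chosen after seeing the data, the library index as a covariate and the deposited TPM in place of CPM. Counting error was under the SD between mice in all 112 pairs of gene and group and over 50% of it in 7, of Pmvk, Mvd, Lss, Tm7sf2, Dhcr7, Stard4 and Abcg1; Stard4 rested on 21 to 58 counts in each senescent sample.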

Additional observations from a re-analysis of the deposited data

How the results depend on the processing

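Between senescent and control MEFs, 10 to 20 of the 28 genes were called across 17 alternatives (14 in the fit reported; 11 to 20 with a mouse left out), and the enzymes' median was -1.17 to -0.83 with a mouse left out, lowest without senescent mouse 6. With 100 μg/mL against senescent, 1 gene was called in the fit reported, 6 by DESeq2, 7 with no filter, 0 in the fit of the pair of groups alone, 0 with either library of control mouse 5 alone, 3 with the offset, 2 with the offset and replicate block, 6 with the library index as covariate (chosen after seeing the data), and 0 to 1 with a mouse left out; the enzymes' median was 0.15 to 0.44 with a mouse left out. With 300 μg/mL against senescent, 0 were called in the fit reported, 10 by DESeq2, 1 with RLE factors, 6 with no filter, 8 with the offset, 8 with the offset and replicate block, 11 with the library index as covariate, and 0 to 2 with a mouse left out; the enzymes' median was 0.55 to 0.78. All these calls were higher. Against control, 300 μg/mL gave 8 in the fit reported, 13 by DESeq2, 16 with the offset, 16 with the offset and replicate block, 15 with the library index, 3 with the fold threshold and 5 to 8 with a mouse left out (5 without treated mouse 4 or 5); the enzymes' median was -0.37, -0.49 with library 5(2) alone, -0.48 with the offset, -0.49 with the offset and replicate block, and -0.56 to -0.33 with a mouse left out. For 100 μg/mL against control, 9 to 12 were called with a mouse left out (9 without treated mouse 5, against 14), with an enzyme median of -0.82 to -0.58. On the deposited TPM (chosen after seeing the data), the enzymes' median was 0.60 with 100 μg/mL and 0.93 with 300 μg/mL against senescent, and -0.27 and -0.037 against control; relative to the shift of all genes these were 0.26, 0.64, -0.74 and -0.43. The causes were not tested. The replicate block gave 13, 1, 0, 0, 13 and 8 calls in the 6 comparisons; it ended the calls of Fdps, Stard4 and Srebf1 and added that of Hsd17b7, as given with each, and changed no other call of a gene whose fold change is given.

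Between 100 μg/mL and senescent, the estimate of Msmo1 (0.04) reversed to -0.17 with the offset, -0.17 with the offset and replicate block, and -0.078 without treated mouse 6, and up to 0.32 with another mouse left out. Over all 28 genes, at least 1 of 16 alternatives turned the sign of 3 estimates in senescent against control (Ebp, Scap, Mylip), 8 with 100 μg/mL and 5 with 300 μg/mL against senescent; the largest of these was 0.33 in size and none was called. By TPM, 1, 8 and 1 of the 28 had the opposite sign in these comparisons, or 1, 5 and 1 relative to the shift of all genes.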
